A study of Mus musculus with 4 samples.

Results

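Nascent RNA was measured across the mouse locus that holds Supt3, the gene mutated in the series, and its flanking genes Runx2, Cdc5l and Clic5. These 4 genes were taken by symbol from the 54146 mouse genes of the deposited table, by a rule that uses no measured value, although earlier results of these data were known when the 4 were picked. The cells were embryonic stem (ES) cells in medium with LIF and serum, as 2 libraries labelled Supt3 KO and 2 labelled Supt3 WT. RNA had been labelled with 4-thiouridine before purification (TT-seq), which enriches RNA made during the labelling. Labelled RNA of S. pombe, a fission yeast, had been added to every library as a spike-in. The labels do not describe the mutant allele, name a clone or strain, or say whether the libraries of a genotype are separate cultures. Every p-value below therefore rests on library-to-library spread alone, and part of that may be technical.

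Supt3 encodes a histone-fold subunit of SAGA, a large coactivator complex that acetylates histones and helps to place the TATA-binding protein at promoters. Runx2 encodes a DNA-binding factor that is needed to form bone and acts with the partner protein CBFB. Cdc5l encodes a core protein of the Prp19 complex of the spliceosome, and Clic5 a chloride intracellular channel family protein that is bound to the actin cortex, known from inner-ear hair cells and podocytes. The neighbourhood of Supt3 and Runx2 is conserved in mammals, and the distal promoter of Runx2, which drives its bone isoform, lies inside a Supt3 intron.

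From centromere to telomere the order on chromosome 17 (mm10) was Clic5, Runx2, Supt3 and Cdc5l, within 1.25 Mb. Clic5 (ENSMUSG00000023959) spans 44188572 to 44280168 on the plus strand, and Runx2 (ENSMUSG00000039153) spans 44495987 to 44814797 on the minus strand. Supt3 (ENSMUSG00000038954) spans 44777152 to 45119290 on the plus strand, and Cdc5l (ENSMUSG00000023932) spans 45391892 to 45433707 on the minus strand. Supt3 and Runx2 overlap head to head by 37.6 kb at their 5′ ends, so that each is read through the first part of the other, 11.0% of the Supt3 span and 11.8% of the Runx2 span. In the GENCODE M21 annotation this overlap holds 2 exon blocks of Supt3 and 1 of Runx2, which share 0 bases. Of 13 annotated Runx2 transcripts, 7 start inside Supt3 and 6 start before it, the nearest of these 40.5 kb from the Supt3 start. Supt3 and Cdc5l converge, with 273 kb between their 3′ ends.

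The RefSeq promoters (GRCm38.p6) are shown because they lie at annotated starts of the 4 genes and because 2 of them, those of Supt3 and Runx2, each point into the other gene. Which annotated start was used in these cells was not measured. Each line gives the 250 bases before the annotated start, 5′ to 3′ on the gene's own strand, and capitals mark matches to 4 motifs searched on both strands. Supt3 is at chr17:44776916-44777165 (plus), Runx2, inside the Supt3 span, at chr17:44814628-44814877 (minus), Cdc5l at chr17:45433708-45433957 (minus) and Clic5 at chr17:44188322-44188571 (plus). The RefSeq starts of Supt3 and Runx2 lie inside the gene spans given above. Most of the Runx2 window and the last bases of the Supt3 window therefore fall within those spans.
Supt3: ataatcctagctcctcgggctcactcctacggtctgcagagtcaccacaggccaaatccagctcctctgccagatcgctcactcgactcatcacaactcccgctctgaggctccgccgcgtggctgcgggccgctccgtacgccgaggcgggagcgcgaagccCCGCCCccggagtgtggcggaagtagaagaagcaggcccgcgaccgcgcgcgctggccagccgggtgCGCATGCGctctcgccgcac
Runx2: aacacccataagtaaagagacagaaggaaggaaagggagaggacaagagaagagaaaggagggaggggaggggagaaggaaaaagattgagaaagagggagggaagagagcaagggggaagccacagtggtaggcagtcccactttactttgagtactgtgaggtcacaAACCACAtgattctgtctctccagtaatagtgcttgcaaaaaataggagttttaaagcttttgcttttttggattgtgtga
Cdc5l: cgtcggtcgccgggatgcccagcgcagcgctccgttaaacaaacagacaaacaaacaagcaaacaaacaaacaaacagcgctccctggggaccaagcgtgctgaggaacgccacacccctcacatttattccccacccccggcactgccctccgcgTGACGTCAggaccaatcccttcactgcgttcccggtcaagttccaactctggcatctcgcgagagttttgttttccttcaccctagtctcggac
Clic5: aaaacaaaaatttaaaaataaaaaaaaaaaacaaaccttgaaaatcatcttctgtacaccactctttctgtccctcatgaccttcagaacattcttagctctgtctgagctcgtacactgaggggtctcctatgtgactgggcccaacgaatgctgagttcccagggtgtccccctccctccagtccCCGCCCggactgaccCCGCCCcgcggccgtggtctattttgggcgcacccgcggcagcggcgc

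The motifs were chosen with these sequences in view, and a match describes letters, not a bound site. Counted over the 300 bases from 250 before to 50 after the start, the RUNX motif AACCACA occurred 3 times in the Runx2 promoter and in none of the other three. Its matches began 81 bases before the start and at bases 23 and 31 after it. Of 32851 mouse promoters, 5.27% held it. The core of the NRF1 motif, CGCATGCG, began 20 bases before the Supt3 start (1.87% of promoters held it). The cAMP response element TGACGTCA began 94 bases before that of Cdc5l (1.79%). The GC box GGGCGG occurred 2 times each in the Supt3 and Clic5 promoters (35.7%). No matches overlapped each other. The 300 bases held 35 CpG in Supt3, 26 in Cdc5l, 16 in Clic5 and 2 in Runx2, where the median over all promoters was 7.

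Because Supt3 and Runx2 overlap, the deposited counts were examined for how overlapping genes had been treated. Among genes that lie inside 1 other transcribed gene on the same strand, 100% of 1835 placed in a host intron and 100% of 116 touching a host exon had 0 counts. On the opposite strand, 50.6% of 1693 in a host intron and 28.5% of 655 touching a host exon had 0 counts. The counts thus behave as strand-aware counts over whole gene spans, introns included, with reads on 2 genes of the same strand left out. Supt3 and Runx2 lie on opposite strands. Of the 3 antisense RNAs listed inside Runx2, which lie on the Supt3 strand, Runx2os2 and Runx2os3 had 0 counts in each library, and Runx2os1 had 1 and 1 in KO and 0 and 0 in WT.

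Counts assigned to mouse genes, in units of 1000000, were 13.1 and 18.4 in KO replicates 1 and 2, and 13.5 and 19.4 in WT replicates 1 and 2. Mouse counts per S. pombe count were 2.71 and 4.86 in KO and 3.25 and 5.60 in WT. The 10 ES cell markers summed to 2479 and 2609 CPM in KO and 3065 and 3036 CPM in WT, where CPM are TMM-scaled counts per 1000000 mouse counts. Of the 9 tested, edgeR called 1 (11.1%), Nanog as lower (log2 fold change -0.53, adjusted p = 0.0362), and DESeq2 2. Over all 16789 tested genes edgeR called 8.07% and DESeq2 called 1163 genes. Esrrb (-0.79, edgeR adjusted p = 0.0682) and Zfp42 (-0.62, 0.0639) had larger differences that missed the threshold, and Pou5f1 stood at 0.12. Sox2 was listed at 0 in every library, and it lies wholly inside Sox2ot on the same strand. The 10 fibroblast feeder markers summed to 8.83 and 7.46 CPM in KO and 8.50 and 6.69 CPM in WT, with Fap, Lum and Postn below 0.1 CPM on average. Of the 5 feeder markers tested, edgeR called 0 and DESeq2 called 0. In edgeR 3 of them had an unadjusted p under 0.05, or 60.0%, against 22.9% of all tested genes. Their directions differed, with log2 fold changes of -0.79 for Thy1, -1.19 for Col3a1 and 0.82 for Twist2, on 4 to 48 counts a library. The 10 primitive endoderm markers summed to 976 and 1374 CPM in KO and 465 and 563 CPM in WT.

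Per length of gene the 4 genes differed in level by orders of magnitude, in the same order in each of the 4 libraries. Cdc5l stood highest, at 8223 ± 1179 CPM per Mb of gene span in KO and 8798 ± 858 in WT (SD, n = 2 each), above or equal to 95.0% of the 16789 tested genes. Supt3 followed at 385 ± 33.9 CPM per Mb in KO and 448 ± 22.6 in WT, a level near the middle of the tested genes (percentile 38.4). Clic5 had 69.4 ± 3.75 CPM per Mb in KO and 30.3 ± 5.55 in WT, and Runx2 had 18.5 ± 0.771 in KO and 12.4 ± 0.0355 in WT (percentiles 11.4 and 3.88). The ranges of neighbours in this order did not overlap. Although Supt3 and Runx2 are of like span (342 and 319 kb), Runx2 had 0.0463 and 0.0433 counts per Supt3 count in KO and 0.0268 and 0.0250 in WT.

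**Figure D1:**
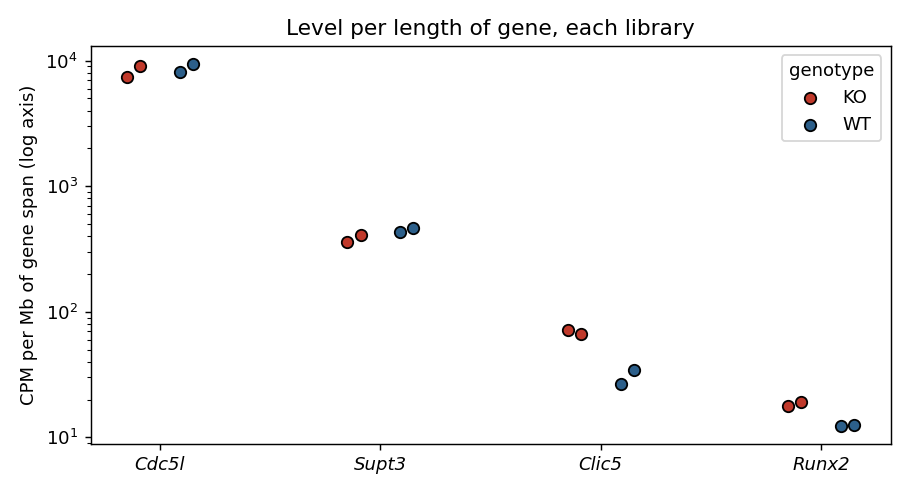
CPM per Mb of gene span (log axis) of the 4 genes in each library, KO left and WT right within a gene. Cdc5l lies above Supt3, Supt3 above Clic5 and Clic5 above Runx2 in each library.

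Counts of Supt3 were still present in the libraries labelled KO, at 0.860 of the WT level. It had 1664 and 2492 counts in KO, against 2015 and 3034 in WT, which scaled to 123 and 140 CPM in KO and 148 and 159 CPM in WT. Both KO libraries lay below both WT libraries, and the gap between the groups was narrower than that between the KO libraries. Of all tested genes, 26.0% had both KO libraries below both WT libraries. Its log2 fold change in KO was -0.22 ± 0.10 (SE), with a 95% interval from -0.44 to 0.0065, and it missed the threshold of 0.05 (edgeR quasi-likelihood test, Benjamini-Hochberg adjusted p = 0.232). A change at least as large as this was common, since 46.8% of tested genes had a larger one in either direction. Supt3 passed without KO replicate 2 (log2 fold change -0.31, adjusted p = 0.0328) and when a term was fitted for the shallower library pair (replicate 1 of each genotype) and the deeper pair (adjusted p = 0.0111), and over all alternatives its adjusted p lay between 0.0111 and 1.000. A sum over 342 kb does not show which exons were kept, so it checks neither the allele nor the genotype. In these bulk libraries fewer cells that read a gene and less RNA per cell cannot be told apart.

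Runx2 had few counts in all libraries and more in KO. It had 77 and 108 counts in KO and 54 and 76 in WT, or 5.71 and 6.06 CPM in KO and 3.96 and 3.97 CPM in WT. Both KO libraries stood above both WT libraries, as in 26.7% of all tested genes. The WT libraries differed from each other by less than their counting error of 13.6% and 11.5%. The log2 fold change was 0.57 ± 0.21 (SE), with a 95% interval from 0.10 to 1.04 and a fold of 1.49, and it did not pass after adjustment over all genes (edgeR, unadjusted p = 0.0225, adjusted p = 0.139). Leaving out single libraries gave values from 0.53 to 0.61, with 0 of the 4 fits passing (adjusted p from 0.160 to 0.490). With the term for library pairs it passed (adjusted p = 0.0247).

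Cdc5l, the most strongly read of the 4, did not differ detectably at this precision. It had 4166 and 6750 counts in KO and 4674 and 7522 in WT, or 309 and 379 CPM in KO and 343 and 393 CPM in WT. The groups overlapped. Its log2 fold change was -0.10 ± 0.13 (SE), with a 95% interval from -0.39 to 0.19 (edgeR, adjusted p = 0.718), and its sign turned without KO replicate 1 (0.04) and without WT replicate 2 (0.0059).

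Clic5 rose in KO, from a low level. It had 89 and 109 counts in KO and 33 and 60 in WT, or 6.60 and 6.12 CPM in KO and 2.42 and 3.14 CPM in WT. The lower KO library was well above the higher WT library, and the difference exceeded the spread within either genotype. KO libraries wholly above WT, by any gap, were seen in 26.7% of all tested genes. The fold of KO over WT was 2.25, a log2 fold change of 1.17 ± 0.23 (SE) with a 95% interval from 0.65 to 1.70 (edgeR, adjusted p = 0.0181), and 3.94% of tested genes had a larger change. Clic5 was thus 1 of 4 genes called, where 8.07% of all tested genes were called, 4.05% as higher and 4.02% as lower in KO. The call was lost without WT replicate 1, the library with the fewest Clic5 counts (log2 fold change 1.01, adjusted p = 0.0578; over all alternatives 1.21e-06 to 1.000). Primitive endoderm markers moved in the same direction, with 8 of 10 called higher, 0 lower and a median log2 fold change of 1.22; their part in the Clic5 result was not tested.

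**Figure D2:**
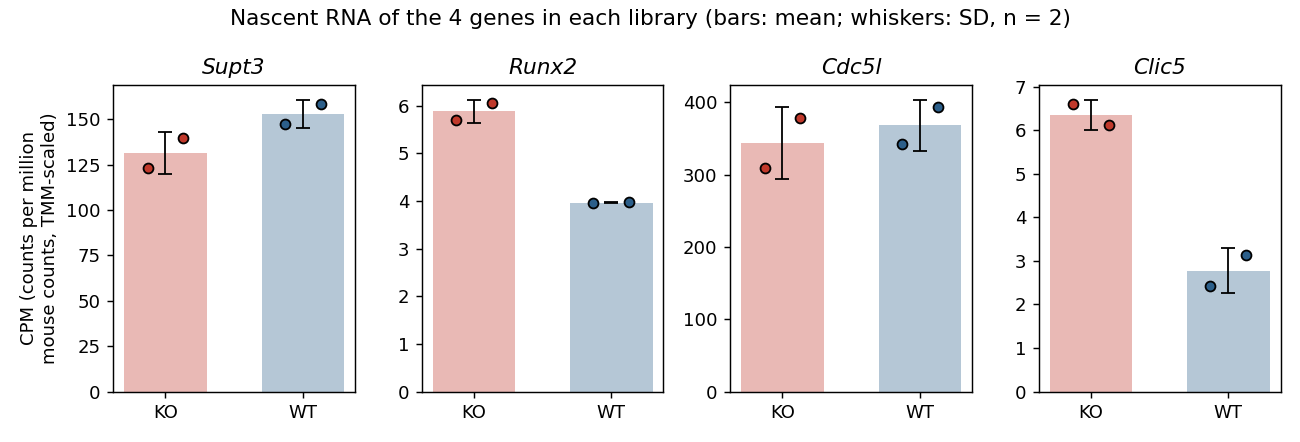
CPM of Supt3, Runx2, Cdc5l and Clic5, KO left and WT right in each panel; points are libraries, bars means and whiskers SD (n = 2). The KO points lie above the WT points in Runx2 and Clic5, below them in Supt3, and overlap them in Cdc5l. Of all tested genes, 26.7% had KO wholly above WT and 26.0% wholly below.

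Scaled to the spike-in instead, none of the 4 genes could be told apart from no change, and the SE were wider (0.60 to 0.80). Supt3 had 343 and 659 CPM of the S. pombe counts in KO and 487 and 876 in WT. On the same scale Clic5 had 18.3 and 28.8 in KO and 7.97 and 17.3 in WT, so its groups did not overlap, by a narrow gap. The groups of Supt3, Runx2 and Cdc5l overlapped. How many of all tested genes were without overlap on this scale was not counted. The log2 fold changes were -0.44 ± 0.76 for Supt3, 0.34 ± 0.60 for Runx2, -0.32 ± 0.80 for Cdc5l and 0.90 ± 0.60 for Clic5 (SE; edgeR, adjusted p = 1.000 each, unadjusted p from 0.136 to 0.688). In this fit 0.101% of tested genes were called, 1 higher and 16 lower. The median of all tested genes was -0.23, and relative to it the 4 genes stood at -0.21, 0.57, -0.09 and 1.13 in the same order. The authors' deposited table, which uses spike-in size factors and a shrunken fold change, lists log2 fold changes of -0.32 for Supt3, 0.23 for Runx2, -0.23 for Cdc5l and 0.58 for Clic5, each with an adjusted p of 0.999.

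Ratios of counts within a library do not depend on any scaling. The ratio of Supt3 to Cdc5l was 0.399 and 0.369 in KO and 0.431 and 0.403 in WT, a log2 difference of -0.12 with no overlap. The ratio of Clic5 to Cdc5l was 0.0214 and 0.0161 in KO and 0.00706 and 0.00798 in WT, a log2 difference of 1.31. That of Runx2 to Supt3 differed by 0.79 and that of Clic5 to Runx2 by 0.64 on the log2 scale, each without overlap. The ratio of Supt3 to the sum of all genes within 1 Mb was 0.0781 and 0.0922 in KO and 0.0896 and 0.104 in WT, and the groups overlapped (log2 difference -0.19, exact two-sided permutation test, p = 0.667). None of the ratios could pass an exact two-sided permutation test, since 2 against 2 libraries allow no p under 0.333 (p = 0.333 for each that did not overlap, 0.400 adjusted over 6 ratios).

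Within the shallower pair, KO replicate 1 and WT replicate 1, the log2 differences in CPM were -0.26 for Supt3, 0.53 for Runx2, -0.15 for Cdc5l and 1.45 for Clic5. Within the deeper pair they were -0.18, 0.61, -0.05 and 0.96 in the same order. Each gene kept its sign in both pairs. With the term for these pairs, which is defined from the library totals, 3 of the 4 genes passed (Supt3, Runx2 and Clic5), where 25.7% of all tested genes did. That fit leaves 1 residual degree of freedom, so its p-values weigh little.

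Most genes around Supt3 did not pass the test. Within 1 Mb of Supt3, 33 other genes are listed and 21 were tested, Runx2, Cdc5l and Clic5 among them. By position these are Rcan2, Enpp5, Enpp4, Clic5, Runx2, Cdc5l, B230354K17Rik, Spats1, Aars2, Tmem151b, Nfkbie, Slc35b2, Hsp90ab1, Slc29a1, Mymx, Capn11, Tmem63b, Mrpl14, F630040K05Rik, Vegfa and Mrps18a. Called by edgeR were 3, or 14.3%, Clic5 as higher and B230354K17Rik and Spats1 as lower, where 8.07% of all tested genes were called. An unadjusted p under 0.05 was seen for 6, or 28.6%, against 22.9% of all tested genes. The count of called neighbours fell without WT replicate 2 and rose without KO replicate 2, as did the count over all tested genes. Of the 21, 12 were negative, with a median log2 fold change of -0.07, and 48.9% of all tested genes were negative, with a median of 0.0065. The KO libraries lay wholly below the WT libraries in 8 of the 21 and wholly above in 6, shares of 38.1% and 28.6%, against 26.0% and 26.7% of all tested genes. On the Clic5 and Runx2 side 1 of 5 tested genes was negative, and on the Cdc5l side 11 of 16. With spike-in scaling 17 of 21 were negative, in a fit where 78.8% of all genes were.

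The 2 lower neighbours lie next to Cdc5l. B230354K17Rik, a long intergenic RNA, starts 144 bases from the Cdc5l start and runs the other way. It had 42.4 and 49.0 CPM in KO and 62.4 and 63.5 CPM in WT, with no overlap (log2 fold change -0.46 ± 0.10, edgeR adjusted p = 0.0287). Per Cdc5l count it had 0.137 and 0.129 counts in KO and 0.182 and 0.161 in WT, a log2 difference of -0.37 that was chosen after the values were seen (exact two-sided permutation test, p = 0.333, 0.400 adjusted over 6 ratios).

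Spats1, which is named for spermatogenesis, follows on the minus strand. It had 10.3 and 13.8 CPM in KO and 19.9 and 22.0 CPM in WT, both KO libraries below both WT libraries (-0.79 ± 0.17, adjusted p = 0.0228). Both calls were lost without WT replicate 2 (adjusted p = 0.114 for B230354K17Rik and 0.0602 for Spats1). Over all alternatives the adjusted p lay between 8.82e-07 and 1.000 for B230354K17Rik and between 1.83e-08 and 1.000 for Spats1. Hsp90ab1, a cytosolic chaperone gene and the most abundant of the 21, had 1029 and 869 CPM in KO and 1022 and 830 CPM in WT (0.03, adjusted p = 0.922).

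Further out, Slc29a1, the gene of a nucleoside transporter, had 28.3 and 50.9 CPM in KO and 53.1 and 62.2 CPM in WT, without overlap but with a wide gap inside KO (-0.53 ± 0.22, adjusted p = 0.198). It passed without KO replicate 2 (-1.03, adjusted p = 3.72e-12), without WT replicate 1 (-0.65, 0.0197) and with no filter on low counts (0.000951), and stood at -0.19 without KO replicate 1. Mymx, a muscle fusion microprotein gene, had 3.26 and 5.05 CPM in KO and 5.42 and 7.27 CPM in WT (-0.60, adjusted p = 0.217). It stood at -0.97 and passed without KO replicate 2 (adjusted p = 0.0116), and at -0.35 without KO replicate 1 and -0.37 without WT replicate 2. Slc29a1, Mymx and Runx2 were the neighbours that passed in addition with the term for library pairs. Vegfa, the vascular growth factor gene near the far edge, had 15.4 and 16.0 CPM in KO and 17.8 and 19.7 CPM in WT, below WT in both KO libraries but short of the threshold (-0.26, adjusted p = 0.291). Enpp4, an ectonucleotidase gene on the Clic5 side, had 5.04 and 6.68 CPM in KO and 5.50 and 6.64 CPM in WT, and the groups overlapped. Besides Runx2, the uncalled neighbours above WT in both KO libraries were Enpp5, Mrpl14, Rcan2 and Mrps18a. Their log2 fold changes were 0.64, 0.36, 0.14 and 0.13 in the same order. Besides Slc29a1, Mymx and Vegfa, the uncalled neighbours below WT in both KO libraries were Capn11 (-0.59), Tmem151b (-0.35) and Nfkbie (-0.24).

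**Figure D3:**
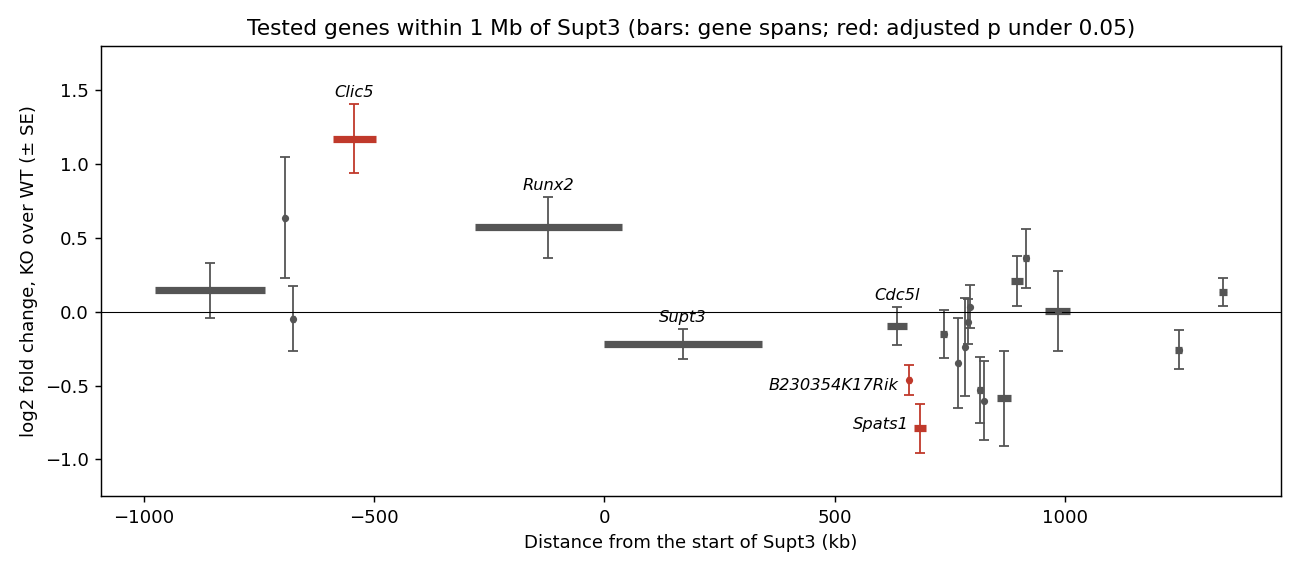
Log2 fold change of KO over WT (± SE) against distance from the Supt3 start (kb) for Supt3 and the 21 tested genes within 1 Mb. Clic5 (1.17) is the called gene above 0, and B230354K17Rik (-0.46) and Spats1 (-0.79) are those below it.

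Along chromosome 17 the 5 Mb bins on either side of the Supt3 start lay apart from the long stretch of lowered genes near the end of the chromosome. In the 5 Mb before the Supt3 start 20 genes were tested, with 2 called higher, 0 lower and a median log2 fold change of 0.09. In the 5 Mb after it 66 were tested, with 2 called higher, 5 lower and a median of -0.05. Over all tested genes 4.05% were called higher and 4.02% lower in KO. From 30 Mb after the start on, by contrast, the medians of 5 Mb bins lay between -1.01 and -0.76, the last 2 bins holding only 5 and 2 genes, and 0 genes were called higher. The median of the 16027 tested genes on other chromosomes was 0.0081, with 658 called higher and 598 lower. Within 1 Mb of Supt3 the median was 0.57 over the 5 tested genes on the Clic5 and Runx2 side and -0.20 over the 16 on the Cdc5l side.

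**Figure D4:**
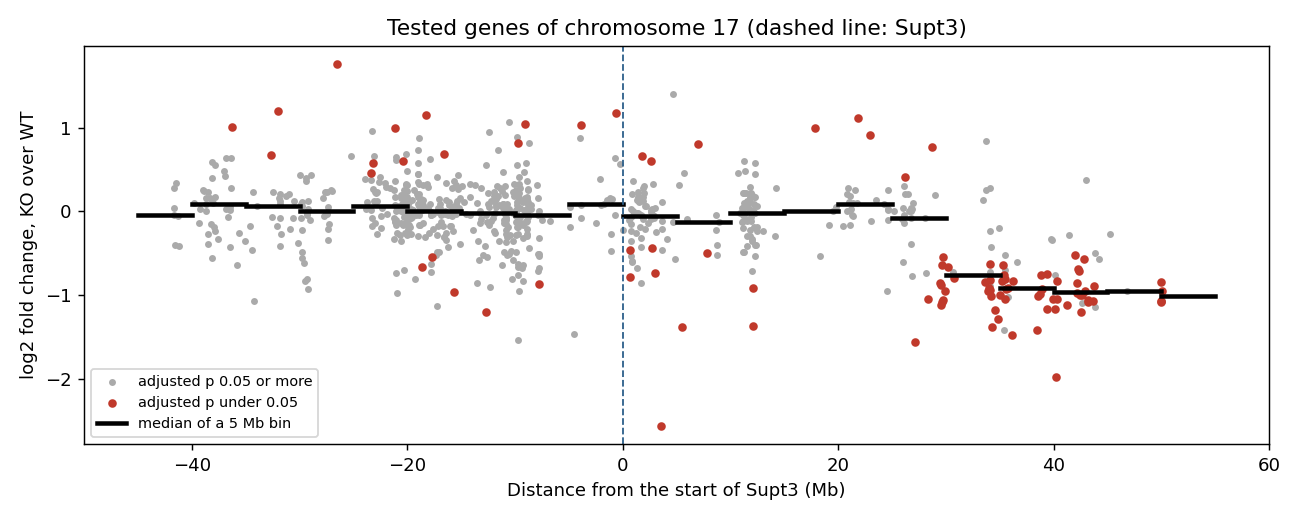
Log2 fold change of KO over WT for the 762 tested genes of chromosome 17 against distance from the Supt3 start (Mb, dashed line), with medians of 5 Mb bins. The bins beside Supt3 have medians of 0.09 and -0.05, and those from 30 Mb on lie at -0.76 or lower.

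Partners, paralogs and downstream genes of the 4 genes were listed, with earlier results of these data known, as 7 lists of 59 genes. All are called partner genes here, although the osteoblast genes are downstream of Runx2 and the Clic and Runx family members are paralogs. Of the 59 genes, 51 were tested. Called were 3 as higher and 5 as lower, 15.7% of the 51, where 8.07% of all tested genes were called. The median log2 fold change of the 51 was 0.01, and that of all tested genes 0.0065. With spike-in scaling 0 were called, and 0 had an unadjusted p under 0.05, against 3.78% of all tested genes. DESeq2 called 9 and limma voom 8. Over all 16789 tested genes the spike-in fit called 17, DESeq2 1163 and limma voom 1354. The count of called partner genes fell without WT replicate 2 and rose without KO replicate 2, as did the count over all tested genes.

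Among partners of Supt3, 0 of 11 tested genes of the SAGA core module and its histone-fold relatives passed in edgeR, DESeq2 or voom. The unadjusted p was under 0.05 for 2 of them in edgeR, or 18.2%, against 22.9% of all tested genes. With the term for library pairs 3 passed, or 27.3%, against 25.7% of all tested genes. Supt20, a SAGA structural subunit, had 169 and 160 CPM in KO and 139 and 152 CPM in WT (log2 fold change 0.18, adjusted p = 0.304). Taf5l, a WD-repeat subunit of the complex, had 154 and 160 CPM in KO and 173 and 198 CPM in WT (-0.24, adjusted p = 0.199). Taf9 was listed at 0 in every library, and it lies wholly inside Ak6 on the same strand.

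Among 9 tested relatives and cofactors of Runx2, edgeR called Runx1 higher and Runx1t1 and Tle3 lower, where 4.05% of all tested genes were called higher and 4.02% lower. Runx1, the family member needed for blood formation, rose to 38.7 and 54.2 CPM in KO, against 26.2 and 28.4 CPM in WT (log2 fold change 0.77 ± 0.16, adjusted p = 0.0204), and was called without each library in turn, with values from 0.50 without KO replicate 2 to 0.98 without KO replicate 1. Runx1t1, a corepressor gene, fell to 96.3 and 88.9 CPM in KO, against 150 and 123 CPM in WT (-0.56, adjusted p = 0.0185), and Tle3, a Groucho-type corepressor gene, had a log2 fold change of -0.47 (adjusted p = 0.0394). Dropping WT replicate 1 cost Runx1t1 its call (adjusted p = 0.0812), and dropping WT replicate 2 cost Tle3 its call (0.165). Cbfb, which encodes the shared partner of the RUNX proteins, had 147 and 169 CPM in KO and 131 and 143 CPM in WT (0.20, adjusted p = 0.287).

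Of 10 osteoblast genes that follow Runx2 in bone, 5 were tested, and edgeR called 2, both lower, where 4.02% of all tested genes were called lower; DESeq2 called 3. Spp1, the gene of the matrix protein osteopontin, had 45.2 and 53.1 CPM in KO and 84.1 and 73.2 CPM in WT (-0.67 ± 0.11, adjusted p = 0.0102). Alpl, the tissue-nonspecific alkaline phosphatase gene, had 41.8 and 45.5 CPM in KO and 60.9 and 67.0 CPM in WT (-0.55 ± 0.10, adjusted p = 0.0134; 0.0784 without WT replicate 2). Phex, an endopeptidase gene of bone mineral balance, had 7.34 and 13.9 CPM in KO and 18.6 and 19.8 CPM in WT (-0.84, adjusted p = 0.0752). The bone-specific Bglap, Bglap2 and Ibsp were listed at 0 in every library.

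Among partners of Cdc5l, 0 of 6 core Prp19 genes and 0 of 9 related splicing factor genes passed in edgeR, DESeq2 or voom. In each list 1 gene had an unadjusted p under 0.05 in edgeR, against 22.9% of all tested genes, and 1 passed with the term for library pairs, against 25.7%. Ctnnbl1, a beta-catenin-like component, had 248 and 261 CPM in KO and 267 and 251 CPM in WT. Hspa8, a constitutive HSP70 chaperone gene, had 196 and 216 CPM in KO and 230 and 225 CPM in WT (-0.14, adjusted p = 0.430). Aqr, an intron-binding helicase gene, and Snw1, a spliceosome and transcription cofactor gene, stood at log2 fold changes of 0.13 and 0.04 (adjusted p = 0.523 and 0.834).

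Of the 3 tested Clic5 paralogs, edgeR called Clic1 and not Clic4 or Clic6. Over all tested genes 4.05% were called higher and 4.02% lower. Clic1 rose to 24.9 and 22.4 CPM in KO, against 14.4 and 12.5 CPM in WT (0.82 ± 0.14, adjusted p = 0.0100), and was called without each library in turn. Clic4, the most abundant of the family, had 151 and 163 CPM in KO and 142 and 152 CPM in WT (0.10, or -0.13 with spike-in scaling). Among 8 tested ezrin-radixin-moesin and hair-cell partners of Clic5, Msn, the moesin gene, was called higher (0.44 ± 0.09, adjusted p = 0.0225) and Tprn, the taperin gene, lower (-0.88 ± 0.22, adjusted p = 0.0463). These were 2 of 8, or 25.0%, where 8.07% of all tested genes were called. Msn was not called without either WT library (adjusted p = 0.0850 and 0.170), nor Tprn without WT replicate 2 (0.203).

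**Figure D5:**
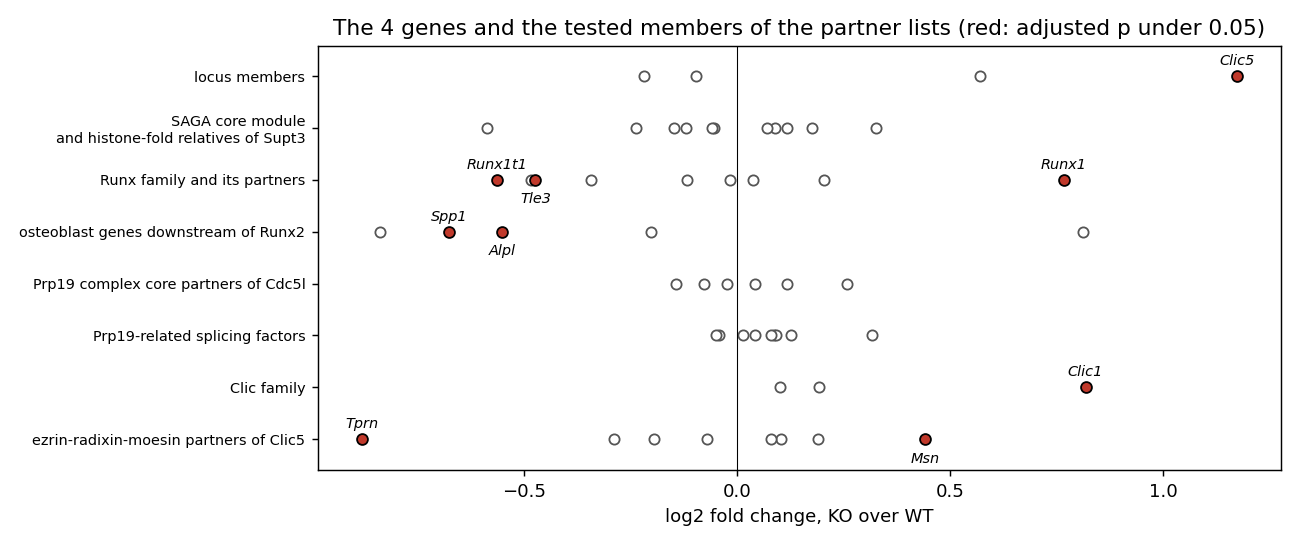
Log2 fold change of KO over WT for the 4 genes (top row) and for the tested members of 7 partner lists; red points passed an adjusted p of 0.05 and are named. Clic5 (1.17) is the value farthest to the right, and Tprn (-0.88) that farthest to the left.

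The profile of Supt3 over the 4 libraries was shared by many genes. Among 7143 other protein-coding genes of at least 20 CPM, the 3 nearest by Euclidean distance of centred log2 CPM were Eif4a2 (0.0122), Rpl38 (0.0152) and Poc1a (0.0172), and 290 lay within 0.1. Eif4a2, a translation initiation helicase gene, had 798 and 894 CPM in KO and 948 and 1023 CPM in WT.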

How the data were processed

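TT-seq counts of 2 Supt3 KO and 2 Supt3 WT mouse ES cell libraries were analysed. The authors deposited raw gene counts, 54146 mouse genes and 7259 of S. pombe. Their deposited comparison table repeats the counts (100% equal) and adds normalized signal (counts over a size factor), a log2 fold change (KO over WT) and p-values. The submitters' processing notes list DESeq2 1.16.1, HTSeq 0.6.1p1, STAR 2.5.3, cutadapt 1.10 and bcl2fastq 2.20.0.422, with mm10; the sources used here do not give the strand setting, counted feature or annotation. Per the labels' protocols, libraries were stranded and not ribodepleted.

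Genes were kept by filterByExpr (minimum count 10; 16789 genes) and fitted with edgeR 4.0.16 (R 4.3.3), TMM scaling and the quasi-likelihood test, with p adjusted over all tested genes. Alternatives were spike-in library sizes, RLE, no filter, DESeq2 1.42.0, limma voom 3.58.1, a term for library pairs, and each library left out. Of these fits only the edgeR fit with TMM scaling was run on simulated counts, and its outcome there is not given. SE is the log2 fold change over the square root of F, and intervals use the fit's t quantile. Replicates were numbered in accession order. Named were the 4 genes, the neighbours within 1 Mb with at least 10 counts on average, up to 3 called members (else the 2 most abundant) of each partner list, and the 3 profiles nearest to Supt3. Values were planned for called neighbours and those overlapping 1 of the 4 genes, and those of other neighbours were added outside that plan. Cbfb, Clic4, Phex, the ES cell and feeder markers and the members listed at 0 were named after their values were seen. Members and lists were chosen with earlier results of these data known. Counting errors, in percent, are 100 over the square root of the count and cover counting only.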

Additional observations from a re-analysis of the deposited data

How the results depend on the processing

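The log2 fold changes of Supt3, Runx2 and Clic5 kept their sign under each alternative run, and that of Cdc5l turned without KO replicate 1 (0.0359) or WT replicate 2 (0.0059). With spike-in scaling the value of Clic5 was 0.90 and no longer passed, and 17 genes in all, 0 neighbours and 0 partner genes were called. With the term for library pairs Supt3 (-0.22) and Runx2 (0.57) passed, and 4307 genes, 6 neighbours and 18 partner genes were called. Without a filter on low counts 2460 genes were called, of more genes tested. Leaving out 1 library gave -0.31 to -0.14 for Supt3, 0.53 to 0.61 for Runx2, -0.25 to 0.04 for Cdc5l, 1.01 to 1.39 for Clic5 and -0.18 to -0.06 for the log2 difference of the Supt3 to Cdc5l ratio. Leave-one-out fits called 743 genes without WT replicate 2 to 3058 without KO replicate 2, and for the same 2 omissions 1 to 6 neighbours and 4 to 14 partner genes, in fits that assume the lone library to vary like the other pair. The causes were not tested. The labels give no replicate numbers, so the library pairs rest on the read totals alone. Runx2 and Clic5 rest on 33 to 109 counts a library, a counting error of 9.58% to 17.4%.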
